A study of Mus musculus with 2 samples.

Results

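MHC-II-high C1q macrophages are tumour macrophages that carry both complement C1q and the MHC class II molecules that present antigen. The study sequenced single cells of mouse subcutaneous tumours by 10x 3′ droplet RNA-seq, with 1 library from mice fed a diet free of serine and glycine (SG) and 1 library from mice fed a control diet (CT). The tumour line, the mouse strain, the age of the mice and the number of tumours behind each library are not stated in the labels. Since each diet is 1 library, a difference between diets is a difference between 2 libraries with no replicate check, and no p-value was computed.

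Barcodes with at least 500 UMIs (unique molecular identifiers, each standing for 1 captured RNA molecule), at least 300 genes and at most 20% mitochondrial UMIs were kept. A kept cell was a C1q cell when it had at least 3 UMIs of C1qa, C1qb and C1qc and at least 10 of them per 10000 UMIs, at most 3 UMIs of the tumour genes Hmga2 and Rhox5, and no UMI of the T-cell gene Cd3e. The MHC-II-high cells are the C1q cells with at least 20 UMIs of H2-Aa, H2-Ab1 and H2-Eb1 per 10000, and the MHC-II-low cells are those below 20. The MHC-II-high class held 1307 of the 34471 kept cells, with 941 in the SG library and 366 in the CT library. The MHC-II-low class held 981 cells, with 356 in the SG library and 625 in the CT library. The 3 C1q genes, the 3 MHC-II genes, Hmga2, Rhox5 and Cd3e chose the cells, so their values below are a description.

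C1q is the recognition part of the classical complement pathway, and macrophages are its main source in many tissues. MHC class II molecules are loaded with peptides in endosomes: the invariant chain Cd74 occupies the groove, H2-DM removes its last fragment and loads the peptide, and the complex is shown to CD4+ T cells. Macrophages switch on the whole group through the transactivator Ciita, which interferon-gamma induces and which acts on a shared promoter module of X and Y boxes.

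That module can be read in the promoters of 2 of the 3 MHC-II genes that chose the cells and of 1 gene that did not. No promoter sequence was at hand for H2-Ab1, Cd74 and Ciita, so theirs were not searched. The 3 stretches are shown because H2-Aa and H2-Eb1 chose the cells and H2-DMb1 was among the genes that differed most between the classes. RefSeq promoter sequences (GRCm38.p6) were searched over the 250 bases before each gene's start for GNAACT, a half-site of the X box, followed after 10 to 40 bases by TGATTGG, the Y box with its inverted CCAAT, on either strand. Capitals mark these letters.
H2-Aa: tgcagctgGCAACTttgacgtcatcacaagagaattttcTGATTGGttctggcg
H2-Eb1: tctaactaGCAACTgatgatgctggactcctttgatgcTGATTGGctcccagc
H2-DMb1: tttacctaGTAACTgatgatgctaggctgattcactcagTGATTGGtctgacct
The H2-Aa stretch lies at chr17:34287859-34287912 on the minus strand, from base 89 to base 36 before the start. The H2-Eb1 stretch lies at chr17:34305768-34305820 on the plus strand, from base 99 to base 47 before the start. The H2-DMb1 stretch lies at chr17:34153089-34153142 on the plus strand, from base 102 to base 49 before the start. The X half-site and the Y box were 25 bases apart in H2-Aa and in H2-DMb1 and 24 bases apart in H2-Eb1. Of 32851 promoters in the table, 76 (0.231%) held the pair, whereas 7.23% held TGATTGG and 37.3% held GNAACT. Of the 11 genes of the MHC-II machinery list with a promoter in the table, 2 held the pair (H2-DMb1 and H2-Eb2). H2-DMa and H2-DMb2 did not hold these letters in the window. The letters were chosen from the textbook module and with these promoters in view, and a match is a description of the sequence.

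The members carried the markers of macrophages. In MHC-II-high cells the 16 genes of the macrophage identity list summed to 40794 CPM (UMIs per 1000000 UMIs of the pool) in the SG library and 40938 CPM in the CT library, and none was at 0 UMIs. Adgre1, which encodes F4/80, was at 327 CPM in SG and 247 CPM in CT members. After each cell was thinned to 1000 UMIs, 25.7% of SG and 21.3% of CT members had an Adgre1 UMI, against none of 316 SG and 115 CT T cells. The unthinned shares in members were 60.8% in SG and 59.6% in CT. Flt3, a receptor of dendritic cells, had a UMI in 0.108% of thinned SG members and in no thinned CT member. The B-cell gene Cd79a was found in none of either. Unthinned, 4.04% of SG and 8.20% of CT members had 2 or more UMIs of other-lineage genes (dendritic, B, T and natural killer cells and neutrophils). In MHC-II-low cells the shares were 5.90% in SG and 2.72% in CT. The 14 genes of the dendritic-cell list summed to 267 CPM in SG and 312 CPM in CT members, against 207 CPM in SG and 211 CPM in CT MHC-II-low cells, and none was at 0 UMIs in SG members and 3 were in CT members. Of its 3 genes with a mean of at least 10 CPM, all 3 were higher in MHC-II-high cells in both libraries, with a median log2 ratio of 0.50 in SG and 0.59 in CT, and their part in the results below was not tested. T-cell markers summed to 37.4 CPM in SG and 7.34 CPM in CT members, against 7059 CPM in SG and 6464 CPM in CT T cells.

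The SG library held 20662 barcodes and 173592046 UMIs, and the CT library 14774 barcodes and 173785388 UMIs. The libraries shared 87 barcodes. None of them was an MHC-II-high cell in both libraries or an MHC-II-low cell in both. SG cells were shallower: the median MHC-II-high cell had 3378 UMIs in SG and 4517 UMIs in CT, and the median MHC-II-low cell had 3768 UMIs in SG and 5361 UMIs in CT. RNA of tumour-typical genes was found in the pools of both classes. Over 25 tumour-typical genes, MHC-II-high cells stood at a median of 5.07% of the tumour-cell level in SG and 2.80% in CT, and MHC-II-low cells at 5.04% in SG and 3.4% in CT. T cells, which should lack these genes, stood at 4.55% in SG and 2.15% in CT.

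C1q macrophages were a slightly smaller share of the SG library than of the CT library, and their MHC-II level was higher in SG. They were 6.39% of kept cells in the SG library and 7.0% in the CT library, a ratio of 0.912 (95% interval 0.842 to 0.988, covering counting error only, as for every interval here). MHC-II-high cells were 72.6% of SG C1q cells (70.0 to 74.97%, exact Clopper-Pearson interval, n = 1297) and 36.9% of CT C1q cells (33.9 to 40.0%, n = 991). The ratio of these shares was 1.96 (1.80 to 2.15). Of all kept cells they were 4.63% in SG and 2.58% in CT, while MHC-II-low cells were 1.75% in SG and 4.41% in CT.

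The shift ran along the whole scale of MHC-II. Cells with 200 or more MHC-II UMIs per 10000 were 20.7% of SG and 4.94% of CT C1q cells, a ratio of 4.18 (3.12 to 5.60). Cells between 100 and 200 were 23.3% of SG and 10.6% of CT C1q cells. Between 20 and 50 the shares were close, at 13.3% in SG and 11.4% in CT. Cells with no MHC-II UMI at all were 7.94% of SG and 30.7% of CT C1q cells. The T-cell pools carried MHC-II too, with H2-Aa at 88.3 CPM in SG and 9.18 CPM in CT. The upper quartile of the MHC-II level was 0 in T cells of both libraries. The highest T cell was at 195 per 10000 in SG and at 10.6 per 10000 in CT. The part of free RNA and of doublets in these values was not tested. Members held H2-Aa at 5755 CPM in SG and 4134 CPM in CT.

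**Figure D1:**
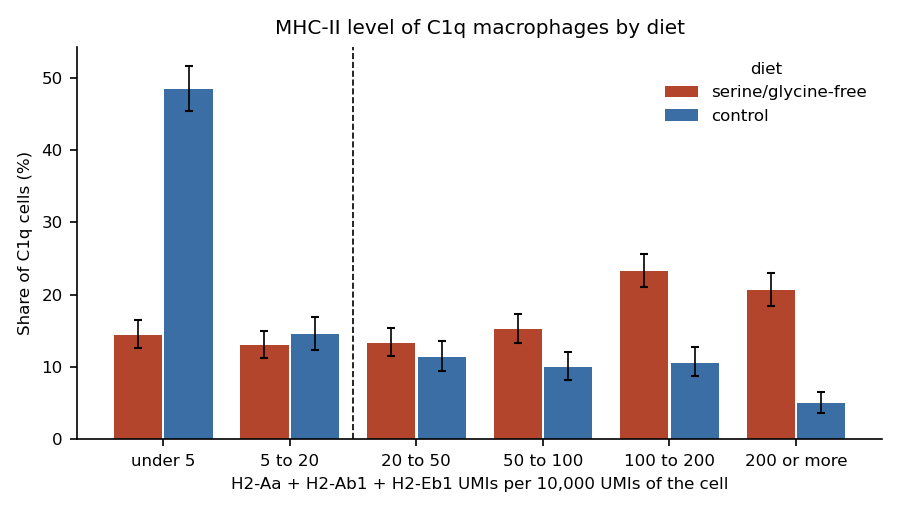
Share of C1q cells (%, y axis) by summed H2-Aa, H2-Ab1 and H2-Eb1 UMIs per 10000 UMIs of the cell (x axis) in the SG (red) and CT (blue) libraries; bars with exact 95% intervals, dashed line at the threshold of 20. The 2 bins at 100 and above hold 23.3% and 20.7% of SG cells, against 10.6% and 4.94% of CT cells.

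The threshold of 20 falls on a slope, not in a gap. Just inside it (20 to 25 per 10000) lay 27 SG and 20 CT cells, and just outside it (15 to 20) lay 44 SG and 33 CT cells. Cd74 was at 2886 CPM in SG and 2936 CPM in CT cells just inside, and at 2554 CPM in SG and 2573 CPM in CT cells just outside. F13a1 was at 543 CPM just inside and 687 CPM just outside in SG, and at 598 CPM just inside and 595 CPM just outside in CT. Cxcl9 was lower just inside, at 686 against 908 CPM in SG and at 256 against 1146 CPM in CT. H2-DMb1 was at 171 CPM just inside and 136 CPM just outside in SG, and at 96.1 against 189 CPM in CT.

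The first comparison set MHC-II-high against MHC-II-low cells within each library, over 8241 genes with a mean of at least 10 CPM. Genes of class II loading, most genes of an interferon-gamma list and the chemokines Cxcl9 and Ccl5 were higher in MHC-II-high cells. Most genes of alternative and resident macrophages and the chemokines Ccl2, Ccl7, Ccl6 and Ccl12 were lower. The classes were split on MHC-II RNA of the same cells, so these ratios describe cells sorted along that axis. "Past 1.5-fold" is the size used for counting. In the SG library 470 genes (5.7%) were higher and 415 (5.04%) lower past 1.5-fold, and in the CT library 321 (3.9%) were higher and 544 (6.6%) lower. Past 1.5-fold in both libraries, 150 genes (1.82%) were higher and 147 (1.78%) lower. With ratios centred on the median of all genes, the CT split became 418 higher and 421 lower.

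Of the 12 measured genes of the MHC-II machinery list, 5 were higher past 1.5-fold in both libraries and 10 were higher at any size in both, where 24% of all genes were. The transactivator Ciita was at 69.1 CPM in SG and 54.2 CPM in CT MHC-II-high cells, against 1.43 CPM in SG and 2.03 CPM in CT MHC-II-low cells. Its log2 ratio was 5.60 (3.73 to 8.65) in SG and 4.74 (3.64 to 6.09) in CT. Cd74, the invariant chain, was at 9618 CPM in SG and 7951 CPM in CT MHC-II-high cells, against 1152 CPM in SG and 819 CPM in CT MHC-II-low cells. H2-DMb1, a chain of the peptide-loading H2-DM, had a log2 ratio of 3.5 (3.17 to 3.84) in SG and 3.86 (3.60 to 4.13) in CT. Its partner H2-DMa had log2 ratios of 1.39 in SG and 1.22 in CT. These genes followed the 3 that chose the cells, and the rest of the pathway did so less: the protease Ctss, which trims the invariant chain, had log2 ratios of 0.54 in SG and 0.30 in CT. Rfxap, a constitutive subunit of the factor that binds the X box, was at 44.1 CPM in SG and 43.5 CPM in CT MHC-II-high cells, against 47.1 CPM in SG and 48.9 CPM in CT MHC-II-low cells.

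MHC class I genes were shifted a little in the same direction. Of 22 genes measured, 17 were higher in both libraries, 1 of them past 1.5-fold in both, and the median log2 ratio was 0.32 in SG and 0.28 in CT. Over all genes the median was -0.03 in SG and -0.07 in CT. H2-T23, a class Ib molecule, was the 1 past 1.5-fold in both, with log2 ratios of 0.61 in SG and 0.84 in CT.

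The interferon-gamma list holds targets of this cytokine and its receptor chains Ifngr1 and Ifngr2. Its genes were higher in MHC-II-high cells in 22 of 22 cases in SG, where 46.3% of all genes were. In CT 20 of 22 were higher, where 40.1% of all genes were. In SG 13 of the 22 passed 1.5-fold with a median log2 ratio of 0.69, and in CT 5 passed with a median of 0.39. Cxcl9, a chemokine that draws CXCR3+ T cells, was at 1413 CPM in SG and 949 CPM in CT MHC-II-high cells, against 486 CPM in SG and 424 CPM in CT MHC-II-low cells. Gbp4, an interferon-induced GTPase, had log2 ratios of 1.13 (0.88 to 1.39) in SG and 0.69 (0.43 to 0.96) in CT. Of the 25 measured genes of the type I interferon list, 16 were higher in SG and 19 in CT, 13 of them in both (24% of all genes were), but none passed 1.5-fold in both. Its median was 0.15 in SG and 0.17 in CT.

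Costimulatory and checkpoint genes had 12 of 16 members higher in both libraries (24% of all genes were), 2 of them past 1.5-fold in both (1.82% of all genes were). Pdcd1lg2, which encodes the PD-1 ligand PD-L2, was at 36.9 CPM in SG and 16.4 CPM in CT MHC-II-high cells, against 6.43 CPM in SG and 1.74 CPM in CT MHC-II-low cells. Cd274, which encodes PD-L1, was at 241 CPM in SG and 173 CPM in CT MHC-II-high cells, against 186 CPM in SG and 117 CPM in CT MHC-II-low cells. Its log2 ratio of 0.37 (0.17 to 0.58) in SG and 0.57 (0.35 to 0.79) in CT was far below that of Pdcd1lg2, at 2.52 (1.55 to 3.68) in SG and 3.24 (1.94 to 4.79) in CT. Cd40, the receptor for T-cell help, had log2 ratios of 1.19 in SG and 0.83 in CT. In CT its ratio turned to -0.41 when cells were thinned to 1000 UMIs and gated again. Cd86, a ligand of CD28, had log2 ratios of 0.45 in SG and 0.43 in CT.

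Chemokines parted in 2 directions. Of 18 measured, 2 were higher and 5 lower past 1.5-fold in both libraries, where 1.82% of all genes were higher and 1.78% lower. The median log2 ratio was -0.76 in SG and -0.26 in CT. Cxcl9 and Ccl5 were the 2 that were higher. Cxcl10 had log2 ratios of 0.78 in SG and -0.04 in CT, and Ccl8 had 0.33 in SG and -0.10 in CT. The monocyte-attracting Ccl2 was at 1006 CPM in SG and 894 CPM in CT MHC-II-high cells, against 2658 CPM in SG and 3115 CPM in CT MHC-II-low cells. Ccl7 was at 653 CPM in SG and 599 CPM in CT MHC-II-high cells, against 1460 CPM in SG and 1364 CPM in CT MHC-II-low cells. Ccl6 and Ccl12 were lower as well, with log2 ratios of -1.16 and -0.95 in SG and -0.88 and -1.26 in CT. Il1b, a pyrogenic cytokine, went the other way, with log2 ratios of 0.91 (0.71 to 1.11) in SG and 1.26 (1.11 to 1.40) in CT, while its natural antagonist Il1rn had ratios of -0.74 in SG and -0.65 in CT.

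Genes of alternative and resident macrophages were mostly lower in MHC-II-high cells. Of 19 measured, 16 were lower in both libraries, against 37.6% of all genes, and 12 were lower past 1.5-fold in both. Lyve1, a hyaluronan receptor of perivascular macrophages, was at 17.9 CPM in SG and 29.3 CPM in CT MHC-II-high cells, against 131 CPM in SG and 142 CPM in CT MHC-II-low cells. F13a1, a transglutaminase, was at 276 CPM in SG and 235 CPM in CT MHC-II-high cells, against 943 CPM in SG and 804 CPM in CT MHC-II-low cells. Its log2 ratio was -1.77 (-1.90 to -1.65) in SG and -1.78 (-1.93 to -1.63) in CT. Mrc1, the mannose receptor CD206, had log2 ratios of -0.73 in SG and -1.03 in CT, and the folate receptor Folr2 had ratios of -0.97 in SG and -0.91 in CT. Arg1, arginase, had ratios of -0.95 in SG and -0.67 in CT. The member that passed 1.5-fold upwards in both libraries was Timd4, a phosphatidylserine receptor, at 24.5 CPM in SG and 16.4 CPM in CT MHC-II-high cells, against 6.43 CPM in SG and 5.79 CPM in CT MHC-II-low cells.

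Some complement, efferocytosis and lipid-associated genes also differed between the classes. Over all genes, 1.82% were higher and 1.78% lower past 1.5-fold in both libraries. Of 15 complement and Fc receptor genes, 3 were higher past 1.5-fold in both libraries: C3, the central complement component, Fcgr4, an activating IgG receptor, and the integrin Itgax. C3 was at 286 CPM in SG and 162 CPM in CT MHC-II-high cells, against 54.3 CPM in SG and 64.3 CPM in CT MHC-II-low cells. Of 13 efferocytosis genes, Axl and Timd4 were higher past 1.5-fold and Gas6 and Stab1 lower in both libraries. Axl, a receptor for apoptotic cells, had log2 ratios of 1.14 in SG and 1.19 in CT, whereas Gas6, which encodes its ligand, had ratios of -1.10 in SG and -1.34 in CT. Of 19 lipid-associated genes 13 were lower in both libraries (37.6% of all genes were), and 2 of them, the lysosomal proteases Ctsd and Ctsl, were lower past 1.5-fold (1.78% of all genes were). Trem2, a lipid receptor, was at 594 CPM in SG and 588 CPM in CT MHC-II-high cells, against 716 CPM in SG and 632 CPM in CT MHC-II-low cells. Spp1 was at 773 CPM in SG and 943 CPM in CT MHC-II-high cells, but tumour cells held it at 7959 CPM in SG and 10452 CPM in CT, and the part of free RNA in it was not tested.

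Some monocyte genes were higher in MHC-II-high cells. Of 11 measured, Ccr2, F10 and Ms4a4c were higher and Fn1 lower past 1.5-fold in both libraries. Over all genes, 1.82% were higher and 1.78% lower. Ccr2, the receptor for Ccl2, was at 217 CPM in SG and 294 CPM in CT MHC-II-high cells, against 90.0 CPM in SG and 144 CPM in CT MHC-II-low cells. Ly6c2, a monocyte surface protein, was at 34.8 CPM in SG and 46.3 CPM in CT MHC-II-high cells, against 23.6 CPM in SG and 11.9 CPM in CT MHC-II-low cells. The fractalkine receptor Cx3cr1 had log2 ratios of 1.11 in SG and 0.83 in CT. Proliferation genes differed between the libraries in this comparison: in SG 11 of 20 were lower in MHC-II-high cells (53.7% of all genes were), with a median of -0.01, while in CT all 20 were lower (59.9% of all genes were), with a median of -0.51. Tumour cells held all 20 of these genes at a higher level than members in both libraries, and the part of their RNA in the result was not tested.

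The 12 genes furthest up in both libraries were Ciita, Klrb1b, H2-DMb1, Cd74, Ccl5, Htr7, Rnase6, Sh2d1b1, F10, Itgax, Napsa and Grk3. Klrb1b, a C-type lectin receptor best known from natural killer cells, was at 17.9 CPM in SG and 26.0 CPM in CT MHC-II-high cells, against 0.714 CPM in SG and 1.45 CPM in CT MHC-II-low cells. Htr7, a serotonin receptor, was at 46.1 CPM in SG and 49.7 CPM in CT MHC-II-high cells, against 9.28 CPM in SG and 9.27 CPM in CT MHC-II-low cells. The 12 furthest down were Cd209g, Gzma, Ednrb, Ltc4s, Lyve1, Vsig4, F13a1, Ankrd33b, Hmox1, Pdpn, Npl and Cbr2. In 7 of the 12 furthest up and 7 of the 12 furthest down, a single cell gave at least 20% of the UMIs of at least 1 of the 4 pools. Gzma, a protease of cytotoxic lymphocytes, owed 94.2% of its SG and 54.0% of its CT UMIs in MHC-II-low cells to 1 cell each. Ltc4s, which makes leukotriene C4, was at 6.91 CPM in SG and 8.47 CPM in CT MHC-II-high cells, against 35.0 CPM in SG and 44.0 CPM in CT MHC-II-low cells. Vsig4, a complement receptor of resident macrophages, was at 4.61 CPM in SG and 5.08 CPM in CT MHC-II-high cells, with 77.8% of the CT UMIs from 1 cell, against 41.4 CPM in SG and 20.8 CPM in CT MHC-II-low cells.

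**Figure D2:**
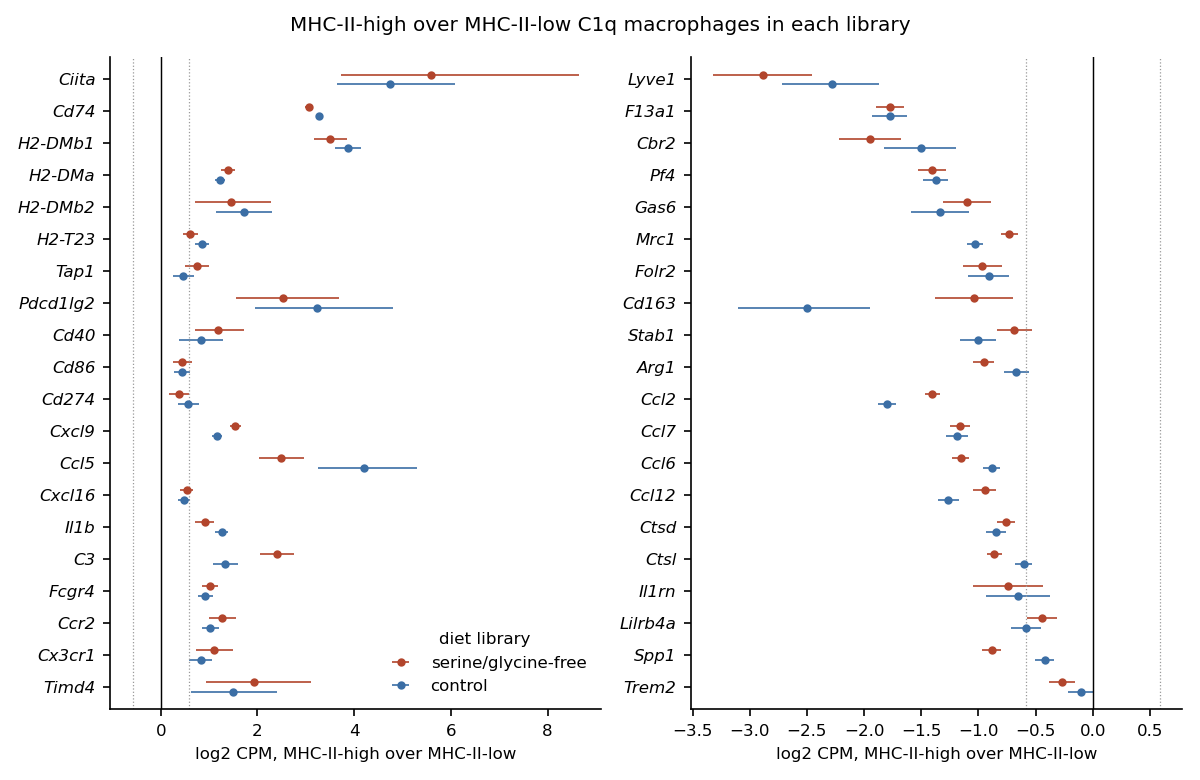
Log2 ratio of CPM, MHC-II-high over MHC-II-low cells (x axis), for genes of the lists (y axis), within the SG (red) and CT (blue) libraries; points with exact 95% intervals, dotted lines at 1.5-fold. Class II loading genes, Pdcd1lg2, Cxcl9 and Ccl5 lie to the right in both libraries, and Lyve1, F13a1, Cbr2 and Ccl2 to the left.

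Within the class, levels followed MHC-II as a gradient. Across the bins starting at 20, 50, 100 and 200 per 10000, Ciita was at 20.3, 45.4, 70.3 and 126 CPM in SG, and at 18.3, 58.3, 66.4 and 111 CPM in CT. F13a1 ran the other way, at 401, 362, 262 and 120 CPM in SG, and at 289, 330, 144 and 70.7 CPM in CT. Ccl2 was at 1844, 1449, 661 and 387 CPM in SG, and at 1419, 941, 543 and 232 CPM in CT. These 3 genes ran along the scale in the same direction in both libraries, with a step back for F13a1 in 1 CT bin. Cxcl9 did not: it was at 765, 1058, 1561 and 2045 CPM in SG, and at 815, 843, 1212 and 914 CPM in CT. The top bin held 268 SG and 49 CT cells. C3 was at 116, 145, 235 and 604 CPM in SG, and at 149.9, 122, 189 and 227 CPM in CT. Below the threshold, at under 5 per 10000, Cxcl9 was at 336 CPM in SG and 331 CPM in CT.

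**Figure D3:**
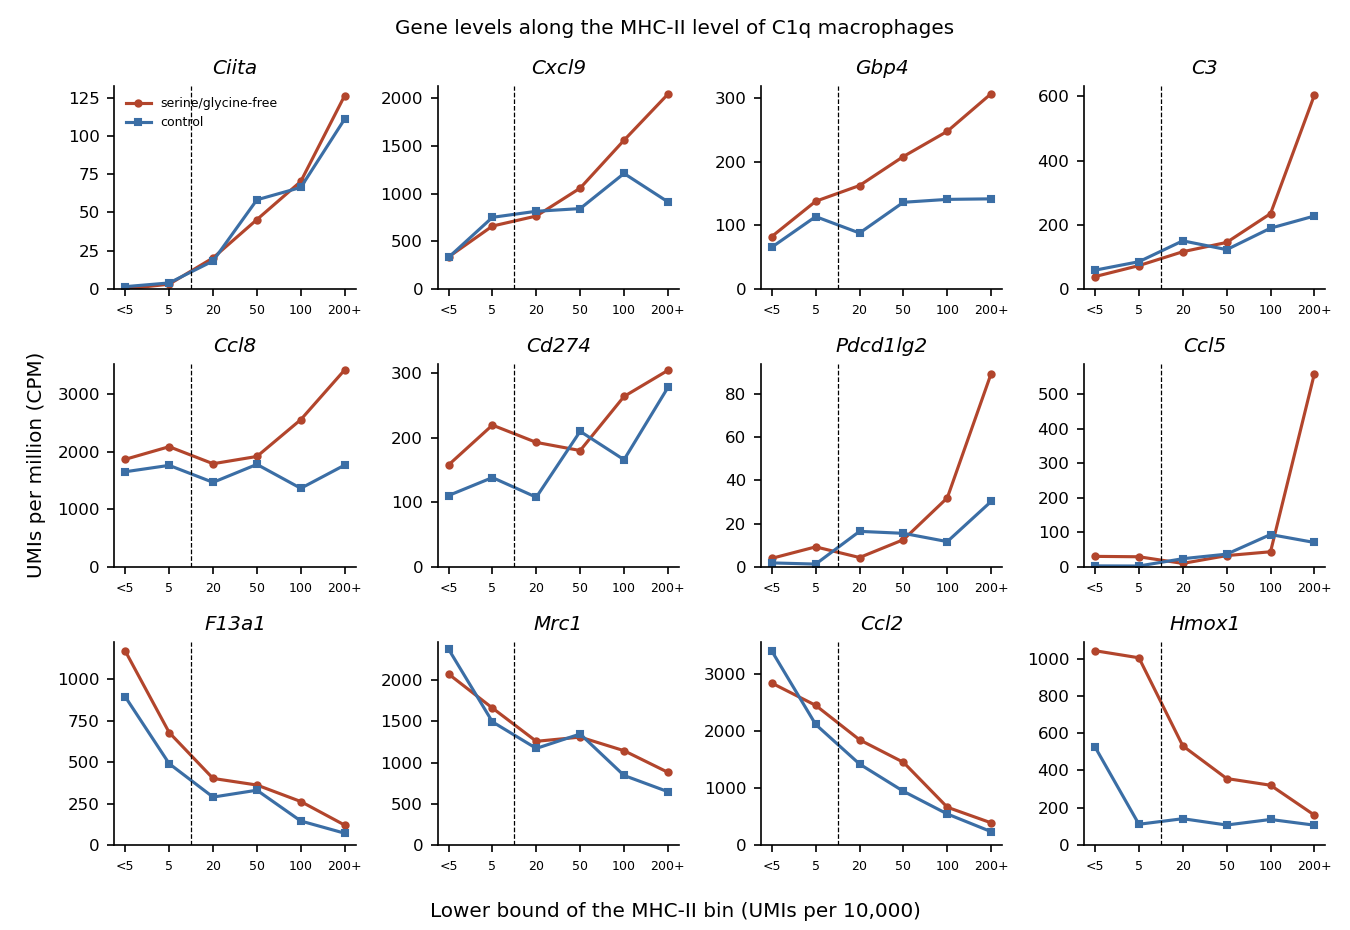
CPM (y axis) of 12 genes by the MHC-II level of C1q cells (x axis, lower bound of each bin) in the SG (red circles) and CT (blue squares) libraries; the dashed line marks the threshold of 20. Cxcl9, Gbp4, C3 and Ccl8 reach 2045, 307, 604 and 3420 CPM in the top SG bin, against 914, 141, 227 and 1768 CPM in the top CT bin, while Ciita runs alike in both.

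The second comparison set MHC-II-high cells of the SG library against those of the CT library, in pools of 3472640 UMIs (SG) and 1771768 UMIs (CT). Most genes of the interferon-gamma list, Ccl8, Hmox1, Ly6a and glucocorticoid-responsive genes were higher in SG members. Most immediate-early and heat-shock genes, Il1b, Ccl3, Mgl2 and several type I interferon genes were lower. Past 1.5-fold, 417 of 8241 genes (5.06%) were higher and 298 (3.62%) lower in SG members. In MHC-II-low cells 307 genes (3.73%) were higher and 458 (5.56%) lower in SG.

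The interferon-gamma list had the highest median among the lists with at least 10 measured genes. Of 22 measured, 21 were higher in SG members, where 52.6% of all genes were. Past 1.5-fold, 14 were higher, where 5.06% of all genes were. The median log2 ratio was 0.71 against 0.02 for all genes. In MHC-II-low cells the same list had a median of 0.25 and 2 genes past 1.5-fold, and 20 of its 22 genes had the higher SG over CT ratio in MHC-II-high cells. Among the GTPases, Ifi47 was at 151 CPM in SG and 77.9 CPM in CT members (0.96, 0.69 to 1.24), Gbp4 at 237 CPM in SG and 123 CPM in CT members (0.94, 0.73 to 1.17), and Gbp5 at 89.3 CPM in SG and 47.4 CPM in CT members (0.91, 0.56 to 1.28). Irf1, a transcription factor that interferon-gamma induces, was at 117 CPM in SG and 76.2 CPM in CT members. Nos2, which makes nitric oxide, was at 41.2 CPM in SG and 18.6 CPM in CT members, with 30.3% of the CT UMIs from 1 cell. Of the receptor chains, Ifngr2 was at 141 CPM in SG and 114 CPM in CT members, and Ifngr1, the gene of the list that was lower, at 130 CPM in SG and 142 CPM in CT members. Tumour cells held all 22 genes at a lower level than members in both libraries, and their own median SG over CT log2 ratio for the list was 0.73.

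Since SG members held more MHC-II, at a median of 122 per 10000 in SG and 82.3 per 10000 in CT, the diets were also compared within bins of MHC-II. The interferon-gamma list had a median log2 ratio of 0.17, 0.36, 0.84 and 0.86 in the bins from 20, 50, 100 and 200, with 15, 18, 19 and 19 of 22 genes higher in SG. Averaged over the 4 bins, the log2 ratio was 0.86 for Gbp4 and 0.44 for Cxcl9. Of the class II genes outside the rule, Cd74 averaged -0.01 and Ciita 0.01 within bins, against pooled ratios of 0.27 for Cd74 and 0.35 for Ciita. The H2-DM genes came out lower in SG within bins, at -0.16 for H2-DMb1 (pooled 0.16) and -0.48 for H2-DMb2 (pooled -0.23), both lower in SG in all 4 bins, and at -0.11 for H2-DMa (pooled 0.07). Cd274 was at 241 CPM in SG and 173 CPM in CT members, a log2 ratio of 0.48 (0.29 to 0.67) that averaged 0.35 within bins. In MHC-II-low cells its SG over CT ratio was 0.68. After thinning, 18.6% of SG and 13.4% of CT members had a Cd274 UMI, with 7.59% of SG and 12.2% of CT T cells. Pdcd1lg2 was at 36.9 CPM in SG and 16.4 CPM in CT members, and within bins its log2 ratio averaged 0.20 and was higher in SG in 2 of 4.

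Type I interferon genes were mostly lower. Of 25 measured, 18 were lower in SG members, where 47.4% of all genes were. Past 1.5-fold, 4 were lower, where 3.62% of all genes were. The median log2 ratio was -0.13. Rsad2, an antiviral enzyme, was at 40.0 CPM in SG and 89.2 CPM in CT members, with 15.1% of SG and 27.2% of CT UMIs from 1 cell each. Isg15, a ubiquitin-like protein, was at 91.3 CPM in SG and 127 CPM in CT members (-0.48, -0.73 to -0.22), and Ifitm3, which blocks viral entry, at 1172 CPM in SG and 1536 CPM in CT members (-0.39, -0.46 to -0.32). Isg15 and Ifitm3 were lower in SG in all 4 bins of MHC-II, and Rsad2 in 3 of 4. The list as a whole had median log2 ratios of -0.56, -0.32, 0.10 and -0.29 in the bins from 20, 50, 100 and 200, with 5, 6, 15 and 10 of 25 genes higher in SG, so that its direction turned in the bin from 100. In MHC-II-low cells 17 of the 25 were lower in SG, where 54.8% of all genes were, with a median of -0.17.

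Both lists held known interferon promoter elements more often than all promoters did, and the difference between the lists was not tested. GAAA followed after any 2 bases by another GAAA, the core of the interferon-stimulated response element, was in 2.98% of all promoters on either strand, in 10 of 17 genes of the interferon-gamma list with a promoter in the table and in 9 of 20 of the type I list. TTCNNNGAA, the gamma-activated site, was in 7.02% of all promoters, in 7 of 17 genes of the interferon-gamma list and in 4 of 20 of the type I list. Irf1 shows the gamma-activated site. Oas3 and Rsad2, 2 of the 4 type I genes that were lower past 1.5-fold, show the response element, in Rsad2 on the opposite strand. Isg20, another of the 4, held the gamma-activated site and not the response element. The response element was also sought in Cmpk2, and the gamma-activated site in Gbp2, Gbp2b, Gbp4, Cxcl9 and Cd274. These gave no stretch, for lack of a match or of a promoter sequence. Capitals mark the element.
Irf1: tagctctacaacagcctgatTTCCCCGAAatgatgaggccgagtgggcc
Oas3: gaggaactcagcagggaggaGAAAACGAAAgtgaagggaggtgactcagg
Rsad2: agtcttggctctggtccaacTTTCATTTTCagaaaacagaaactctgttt
These stretches lie at chr11:53769904-53769952 on the plus strand (Irf1), chr5:120777705-120777754 on the minus strand (Oas3) and chr12:26456543-26456592 on the minus strand (Rsad2).

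**Figure D4:**
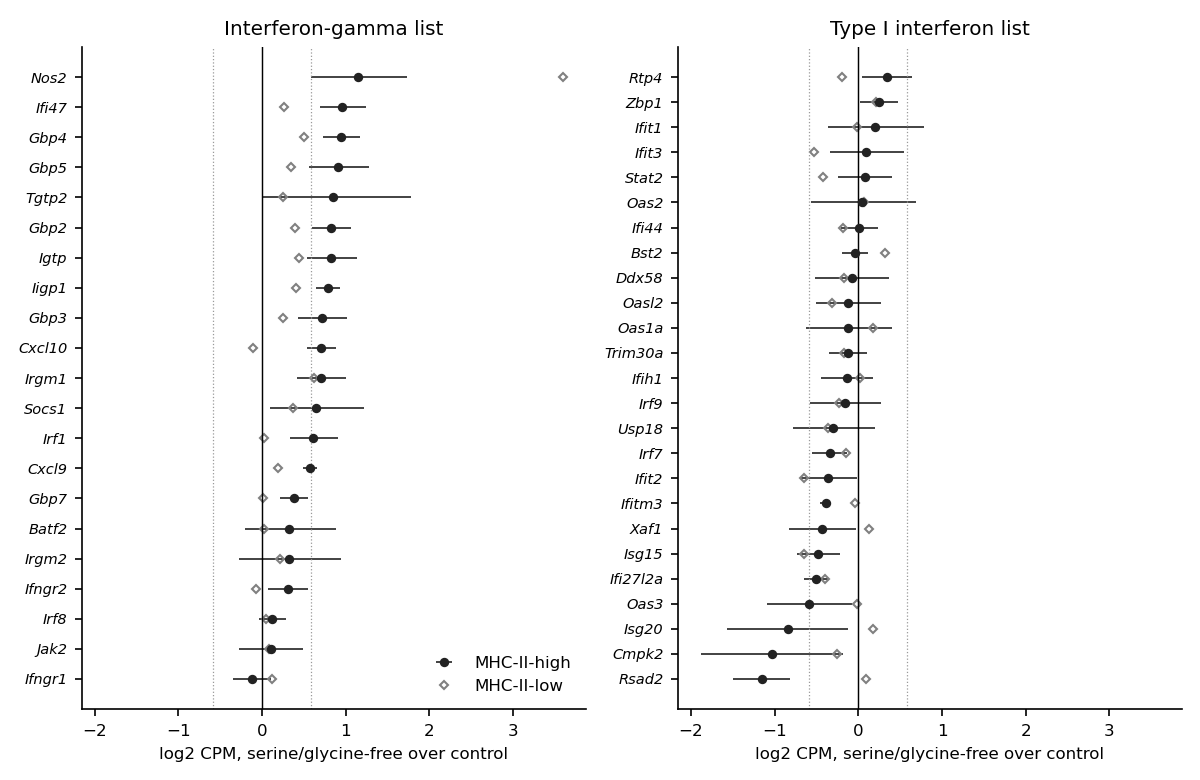
Log2 ratio of CPM, SG over CT (x axis), of the genes of the interferon-gamma list (left) and the type I interferon list (right) in MHC-II-high cells (black, with exact 95% intervals) and MHC-II-low cells (grey diamonds); dotted lines at 1.5-fold. In MHC-II-high cells 20 of the 21 genes drawn on the left are above 0, and 18 of 25 on the right are below 0.

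Chemokines of SG members were split. Of 18 measured, 5 were higher and 4 lower past 1.5-fold, where 5.06% of all genes were higher and 3.62% lower. Cxcl10, a further CXCR3 ligand, was at 340 CPM in SG and 208 CPM in CT members (0.71, 0.54 to 0.88), and Ccl8 at 2481 CPM in SG and 1562 CPM in CT members (0.67, 0.61 to 0.73). Ccl3, a ligand of CCR1, was at 52.1 CPM in SG and 122 CPM in CT members (-1.23, -1.52 to -0.93). Ccl5 was at 167 CPM in SG and 53.1 CPM in CT members, and the within-bin average of its log2 ratio was 0.12, with SG higher in 1 of 4 bins. That bin was the highest, with 559 CPM in SG and 70.7 CPM in CT. There, 31 of 268 SG cells and 1 of 49 CT cells had at least 5 Ccl5 UMIs.

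Inflammatory effectors had 5 of 16 genes higher and 1 lower past 1.5-fold in SG members. Over all genes, 5.06% were higher and 3.62% lower past 1.5-fold. Slc7a2, an arginine transporter, was at 47.5 CPM in SG and 17.5 CPM in CT members (1.44, 0.88 to 2.04) and was higher in SG in all 4 bins. Il1b was at 348 CPM in SG and 509 CPM in CT members (-0.55, -0.67 to -0.42) and lower in SG in all 4 bins. Of the alternative and resident genes, 3 of 19 were higher and 3 lower past 1.5-fold. Cd163, the haemoglobin scavenger receptor, was at 45.5 CPM in SG and 16.4 CPM in CT members, while MHC-II-low cells held it at 93.5 CPM in SG and 92.4 CPM in CT. Mgl2, a lectin also known as CD301b, was at 62.5 CPM in SG and 132 CPM in CT members (-1.07, -1.35 to -0.80), and in MHC-II-low cells at 30.7 CPM in SG and 102 CPM in CT. Hmox1, which breaks down haem, was at 329 CPM in SG and 126 CPM in CT members (1.39, 1.18 to 1.60), and in MHC-II-low cells at 1025 CPM in SG and 434 CPM in CT.

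Few lipid-handling, efferocytosis and complement genes passed 1.5-fold. Over all genes, 5.06% were higher and 3.62% lower past 1.5-fold in SG members. The efferocytosis and complement counts given here are near that share. Fabp5, a fatty-acid-binding protein, was at 490 CPM in SG and 260 CPM in CT members (0.92, 0.77 to 1.07). Of 19 lipid-associated genes 16 were higher in SG members (52.6% of all genes were), 3 of them past 1.5-fold, with a median of 0.16. In MHC-II-low cells 16 of the 19 were higher in SG as well (45.2% of all genes were), 3 of them past 1.5-fold, with a median of 0.32. Mertk, a receptor for apoptotic cells, was at 156 CPM in SG and 84.7 CPM in CT members (0.88, 0.62 to 1.15) and was the 1 of 13 efferocytosis genes past 1.5-fold. C3 was at 286 CPM in SG and 162 CPM in CT members (0.82, 0.63 to 1.01), the 1 of 15 complement and Fc receptor genes past 1.5-fold. Within bins of MHC-II its log2 ratio averaged 0.40, below 1.5-fold, and was -0.37 in the bin from 20. All 11 monocyte genes were lower in SG members (47.4% of all genes were), 1 of them past 1.5-fold, with a median of -0.15. Within bins of MHC-II, 1, 6, 3 and 1 of the 11 were higher in SG in the bins from 20, 50, 100 and 200, with a median of 0.01 in the bin from 50. Ccr2 was at 217 CPM in SG and 294 CPM in CT members.

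Serine and stress genes are of interest for the diet. Of 16 genes of serine, glycine and one-carbon metabolism, 1 was higher and 1 lower past 1.5-fold in SG members. These counts are near the share over all genes, 5.06% higher and 3.62% lower. The median log2 ratio was -0.13. Phgdh, the first enzyme of serine synthesis, was at 17.9 CPM in SG and 16.4 CPM in CT members, whereas tumour cells held it at 292 CPM in SG and 294 CPM in CT. Psat1, the next enzyme, was at 22.2 CPM in SG and 34.4 CPM in CT members (-0.63, -1.14 to -0.13). Its ratio became 0.65 in cells thinned to 1000 UMIs and gated again. Targets of Atf4, the factor of the amino-acid response, were lower in SG members in 10 of 12 cases (47.4% of all genes were), 4 of them past 1.5-fold. Their median of -0.26 turned to 0.068 in cells thinned to 1000 UMIs and gated again. Tumour cells held 14 of the 16 serine and one-carbon genes above the members' level in both libraries, and the part of their RNA in these values was not tested.

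Glucocorticoid-responsive genes were higher in SG members in 10 of 10 cases (52.6% of all genes were), 3 of them past 1.5-fold, with a median of 0.53. In MHC-II-low cells 10 of 10 were higher (45.2% of all genes were), with a median of 0.66. Tumour cells had a median SG over CT log2 ratio of 0.65 for the list. They held 4 of the 10 genes at a higher and 4 at a lower level than members in both libraries. The part of their RNA in the result was not tested. Fkbp5, a co-chaperone of the glucocorticoid receptor, was at 109 CPM in SG and 57.6 CPM in CT members (0.92, 0.60 to 1.25), and at 231 CPM in SG and 165 CPM in CT tumour cells. Glycolysis and hypoxia genes were higher in 17 of 18 cases (52.6% of all genes were) with a median of 0.18, below the 0.54 of MHC-II-low cells. Tumour cells held 8 of these 18 at a higher level than members in both libraries and had a median SG over CT log2 ratio of 0.44 for the list, and the part of their RNA was not tested. Immediate-early and heat-shock genes, which respond to tissue dissociation, were lower in SG members in 15 of 20 cases (47.4% of all genes were), 8 of them past 1.5-fold. Their median was -0.32, against 0.13 in MHC-II-low cells. In the MHC-II bins from 20, 50, 100 and 200 their median was 0.06, -0.61, -0.24 and -0.65, with 10, 5, 5 and 4 of 20 higher in SG. Jun was at 219 CPM in SG and 428 CPM in CT members (-0.97, -1.11 to -0.82), and the heat-shock protein Hspa1a at 21.0 CPM in SG and 72.8 CPM in CT members. Proliferation genes were higher in SG members in 15 of 20 cases (52.6% of all genes were) with a median of 0.13. Tumour cells, which held all 20 at a higher level, had a median SG over CT log2 ratio of 0.34 for them. In MHC-II-low cells the direction was the opposite: 1 of the 20 was higher in SG (45.2% of all genes were), with a median of -0.25.

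**Figure D5:**
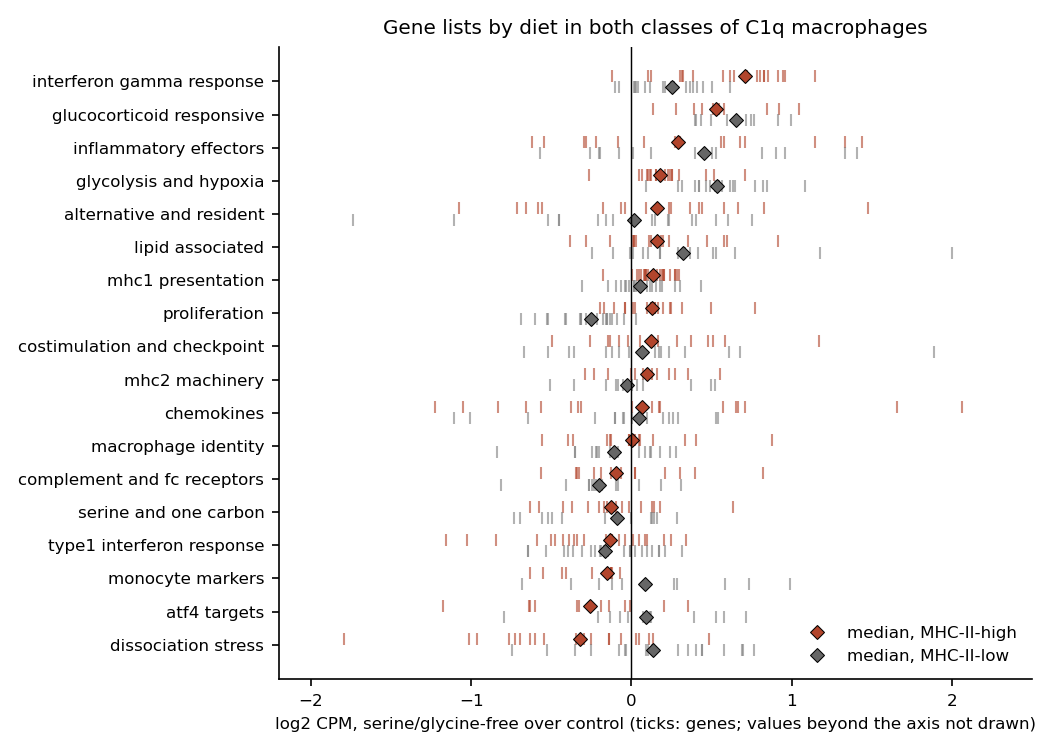
Log2 ratio of CPM, SG over CT (x axis), for each gene list (y axis) in MHC-II-high cells (red) and MHC-II-low cells (grey); ticks are genes and diamonds medians. Among the lists with at least 10 measured genes, the interferon-gamma list has the highest median in MHC-II-high cells (0.71, against 0.25 in MHC-II-low cells) and the dissociation-stress list the lowest (-0.32, against 0.13).

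The genes with the 12 highest SG over CT ratios were Sparc, Fabp4, Flrt2, Col3a1, Rarres2, Lyz1, Cxcl13, Col1a1, Fam135a, Col1a2, Ednrb and Tgfbr3. In 9 of the 12, a single cell gave at least 20% of the UMIs of a library's members, and 8 of the 12 were more abundant in tumour cells than in members in both libraries. Lyz1, a lysozyme, was at 93.3 CPM in SG and 18.6 CPM in CT members (2.32, 1.81 to 2.89), with no more than 12.1% of a library's UMIs in 1 cell. The 12 lowest were Hbb-bs, Ctsk, Mmp9, Hspa1a, Fgf13, AY036118, LTO1, Edil3, Nol4l, Hist1h4i, Slfn4 and Trem1. In 5 of these, a single cell gave at least 20% of a library's UMIs. AY036118, a transcript at 272 CPM in SG and 812 CPM in CT members, was also at 60.8 CPM in SG and 155 CPM in CT tumour cells.

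Leaving aside genes with a tumour-cell level above the members' own and genes with a cell that held 10% or more of their UMIs, a restriction chosen after the values were seen, left 3355 genes, 106 of them (3.16%) higher and 102 (3.04%) lower past 1.5-fold in SG members. The highest was Ly6a, the interferon-inducible surface protein Sca-1, at 544 CPM in SG and 176 CPM in CT members (1.63, 1.45 to 1.80). After thinning, 28.1% of SG and 10.1% of CT members had a Ly6a UMI, with 8.86% of SG and 5.22% of CT T cells. In thinned MHC-II-low cells the shares were 13.5% in SG and 5.39% in CT. Unthinned, the shares were 48.5% of SG and 24.3% of CT members. Tumour cells also held more Ly6a in SG, at 227 CPM in SG and 103 CPM in CT. Slc7a2 and Hmox1 came next, and further down were the GTPase Gbp2b at 421 CPM in SG and 204 CPM in CT members, the DNase Dnase1l3 at 43.8 CPM in SG and 18.6 CPM in CT members, and Mgst1, a glutathione transferase, at 180 CPM in SG and 92 CPM in CT members. At the low end, besides AY036118 and Edil3, were Sh2d1b1, an adaptor of SLAM receptors, at 14.97 CPM in SG and 36.7 CPM in CT members, Fcrls at 22.2 CPM in SG and 51.9 CPM in CT members, and Plxdc2 at 113 CPM in SG and 228 CPM in CT members.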

How the data were processed

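Single cells of mouse subcutaneous tumours were measured by 10x 3′ RNA-seq, 1 library per diet. The authors deposited UMI counts per gene and barcode as filtered matrices, made with Cell Ranger 7.0.1 per the file headers, while the submitters' processing notes name Cell Ranger 2.2.2 and mm10. The labels' extract protocol describes another tissue, so the dissociation of these tumours is not described here. From the deposited counts, UMIs were summed over the cells of each class and library and divided by the class total (CPM). No cell was left out as a doublet. Scrublet (scanpy 1.11.5) predicted 5.94% of SG and 4.03% of CT kept cells as doublets, among them 2.13% of SG and 0.546% of CT MHC-II-high cells.

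Ratios carry exact conditional 95% intervals and shares Clopper-Pearson intervals (Python 3.11.15, numpy 2.4.6, scipy 1.17.1, pandas 2.3.3; figures by matplotlib 3.10.9). They cover counting error only. The code was tested on simulated data. Genes with a mean of at least 10 CPM over the 4 pools and outside the rule were compared. Cells were thinned to 1000 UMIs for shares of cells with a UMI, leaving out 18 SG and 9 CT shallower MHC-II-high cells. Background T cells (343 SG, 118 CT) had at least 2 Cd3e UMIs and no C1q UMI, and tumour cells (13304 SG, 10727 CT) more than 3 Hmga2 and Rhox5 UMIs and no Ptprc UMI. Named genes are the 12 highest and 12 lowest ratios with at least 50 UMIs, up to 4 per list of largest size, and 18 fixed genes given whatever their values. Further list members given as examples were chosen after their values were seen. The members, gene lists and named genes were chosen with earlier results of these data known. Alternatives varied the gates, depth, doublets, weighting, scaling, pseudocount and filter. A gene of the interferon-gamma list is counted in it but not reported by itself here.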

Additional observations from a re-analysis of the deposited data

Results flagged for a closer look

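For 8 genes the MHC-II-high over MHC-II-low ratio passed 1.5-fold upwards in one library and downwards in the other. With 1 library per diet the difference was not tested. Values are log2 ratios. Rsad2 had -0.63 in SG and 0.62 in CT, and its most loaded cell held 15.1% of SG and 27.2% of CT UMIs in MHC-II-high cells. Cd36, a fatty-acid receptor, had -0.73 in SG and 0.69 in CT. Fabp4, a fatty-acid-binding protein, had 1.05 in SG and -0.75 in CT. In the other genes 1 cell carried most of the UMIs of at least 1 pool. Sparc had 1.89 in SG and -3.86 in CT, where 1 MHC-II-low cell held 87.0% of its UMIs. Col1a1 had 1.98 in SG and -4.30 in CT, and Col3a1 had 2.54 in SG and -3.72 in CT, with 97.4% of Col1a1 and 95.5% of Col3a1 UMIs of the CT MHC-II-low cells in 1 cell each. Ctsk had -2.23 in SG and 1.77 in CT, where 1 MHC-II-high cell held 97.7% of its UMIs. Hbb-bs, a haemoglobin chain, had -3.63 in SG and 3.51 in CT, where 1 MHC-II-high cell held 93.0% of its UMIs.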

How the results depend on the processing

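No paired analysis was possible because each diet is 1 library. The ratio of MHC-II-high shares, 1.96, was 1.77 with the MHC-II threshold at 10 per 10000 and 2.19 at 40, and between 1.91 and 2.05 under the other gates. Counts of genes past 1.5-fold moved by over 1.5 times under 4 settings, given as higher and lower for the class ratio in SG, in CT, in both libraries, and for SG over CT: thinned to 1000 UMIs, 979 and 1189, 949 and 1517, 250 and 394, 1192 and 832. With a mean of at least 2 CPM they were 1143 and 1063, 851 and 1304, 314 and 342, 1149 and 873. With a mean of at least 50 CPM they were 108 and 87, 82 and 107, 52 and 53, 71 and 35. With a pseudocount of 10 CPM they were 212 and 161, 139 and 202, 83 and 80, 138 and 82. With thinning the gates were applied to the thinned counts, so the cells changed as well. It gave 1068 MHC-II-high and 397 MHC-II-low cells in SG, and 399 and 647 in CT. The other settings change which low genes enter or how far they can move. No list median past 1.5-fold changed sign, and 15 of 855 moved. Of 5133 single-gene values 364 moved and 27 reversed. Thinning gave, for the class ratio, Cd40 -0.41, G0s2 0.70, Slc7a11 -0.0031 and Vsig4 0.11 in CT and Cebpd 0.072 and Gzma 0.25 in SG, and for SG over CT, Ctsk 0.90, Cxcl3 0.58, Mmp9 0.80, Nupr1 0.11 and Psat1 0.65. With Hmga2 and Rhox5 at 0, CT class ratios were 0.85 for Col1a1, 0.34 for Col3a1 and 1.27 for Dcn, and SG over CT was 0.016 for Cxcl3 and 2.03 for S100a9. The threshold of 40 gave SG class ratios of -2.30 for Col1a1 and -2.95 for Col3a1. A C1q threshold of 20 gave Ctsk 1.19 (SG over CT). Without cells of other-lineage UMIs, SG over CT was 0.57 for Lyve1 and 2.21 for S100a9; with cells weighted equally it was 0.033 for Lyve1; without predicted doublets it was -0.014 for Bank1. With the top cell of each gene left out, an alternative added after seeing the data, as were the averages over bins, Col1a1 was 0.71 and Col3a1 0.65 (class, CT), and Ctsk 0.60 and S100a9 2.38 (SG over CT). The cause of these reversals was not tested.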

Other observations

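A few MHC-II-high cells carried most of the Ccl5, which encodes a T-cell-attracting chemokine; these cells were singled out after their values were seen. At least 5 Ccl5 UMIs were found in 33 of 941 SG members (3.51%, 2.43 to 4.89%) and in 6 of 366 CT members (1.64%, 0.604 to 3.53%). The 33 SG cells held 381 of the 581 Ccl5 UMIs of SG members. They had no UMI of Cd3g, Cd8a, Nkg7, Ncr1, Xcr1, Clec9a, Flt3, Ccr7, Fscn1 or Ccl22, markers of lymphocytes and dendritic cells, which at this depth allows up to 26.4 CPM of each. Adgre1 was at 500.3 CPM in the 33 cells and 320 CPM in the other 908 SG members, Csf1r at 322 CPM in the 33 cells and 361 CPM in the others, and Itgax, which dendritic cells also express, at 78.6 CPM in the 33 cells and 21.3 CPM in the others. Pdcd1lg2 was at 157 CPM (98.5 to 238) in the 33 cells and 31.8 CPM (26.0 to 38.5) in the others, Cxcl9 at 2602 CPM in the 33 cells and 1363 CPM in the others, Cd274 at 436 CPM in the 33 cells and 233 CPM in the others, and Mrc1 at 486 CPM in the 33 cells and 1164 CPM in the others. The 6 CT cells held Adgre1 (2 UMIs) at 71.2 CPM, against 250.05 CPM in the other CT members. They held Cd274 at 427 CPM and Pdcd1lg2 (1 UMI) at 35.6 CPM, and the other 360 CT members held Cd274 at 169 CPM and Pdcd1lg2 at 16.1 CPM. T cells hold Ccl5 as well: after thinning it had a UMI in 45.6% of SG and 25.2% of CT T cells, against 8.67% of SG and 3.92% of CT MHC-II-high cells and 2.58% of SG MHC-II-low cells.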
